A study of Mus musculus with 14 samples.

Results

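The synaptonemal complex is the protein zipper that holds homologous chromosomes side by side in meiotic prophase, and meiotic cohesin is the ring complex on which its axes are built. The 9 genes described here encode parts of both structures. They are Sycp1, the transverse filament; Sycp2 and Sycp3, the lateral elements; Syce1 and Syce2, the central element; Hormad1, a HORMA domain protein of unsynapsed axes; and Smc1b, Rec8 and Stag3, the cohesin subunits of meiotic cells. Probes were chosen by gene name, which found 8 probes of 7 genes. Sycp2 and Rec8 carry older names on the array (4930518F03Rik and Rec8L1), so their 5 probes were added through the RefSeq accession on the array. All 13 probes of the 9 genes are described, of 41174 non-control probes of 27670 genes.

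Messenger RNA of whole testis was measured on 14 Agilent single-colour arrays with 60-base probes, from C57BL/6 mice kept with their mothers and given no treatment. The 4 groups were WT and Glis3KO2 mice at 1 week of age (4 samples each) and WT and Glis3KO2 mice at 4 weeks (3 samples each). The series text gives 3 weeks for the older mice, and the sample labels are followed here. Glis3KO2 is the labels' name for mice with a disrupted Glis3, which encodes a Krüppel-like zinc finger factor. The allele and the cells in which it is disrupted are not given in the sources used here. Nothing in the labels says that the samples of a group are separate animals, so p-values measure only the spread between these samples.

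In the mouse, spermatogonia enter meiosis in the second week of life, after the germ cells present at birth have resumed division. Cohesin rings of spermatocytes carry meiotic subunits in place of, or next to, the general ones: SMC1B for SMC1A, REC8 or RAD21L for RAD21, and STAG3 for STAG1 or STAG2. SYCP2 and SYCP3 coat these axes, SYCP1 spans the gap between homologs, and SYCE1 and SYCE2 sit where SYCP1 molecules meet. HORMAD1 marks axes that have not yet paired and is removed on synapsis. Transcripts of many of these genes are already present in spermatogonia before the proteins assemble.

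The probe sequences printed here show which part of a transcript some of the values rest on. They are the 4 probes that have an open reading frame and an interval on the deposited mm7 map longer than the 60 bases of the probe, as it is where a probe crosses a splice junction. Hormad1 probe a has such an interval but no open frame and is not printed.
Sycp1: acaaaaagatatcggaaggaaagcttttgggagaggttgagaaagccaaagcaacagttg
Sycp2: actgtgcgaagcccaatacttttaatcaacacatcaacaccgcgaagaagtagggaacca
Sycp3: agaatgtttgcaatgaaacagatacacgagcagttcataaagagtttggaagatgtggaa
Rec8: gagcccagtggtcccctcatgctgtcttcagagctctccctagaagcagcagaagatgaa
The Sycp1 probe covers chr3:102647366-102648037 (minus strand), the printed Sycp2 probe chr2:178880436-178881800 (minus strand), the Sycp3 probe chr10:88027463-88030553 (plus strand) and the printed Rec8 probe chr14:50491716-50492100 (plus strand). These intervals span 672, 1365, 3091 and 385 bases. The other probes lie on mm7 at chr7:137194617-137194676 (Syce1, minus strand), chr8:83473344-83473403 (Syce2, plus strand), chr15:85147084-85147143 (Smc1b, minus strand) and chr5:137257699-137257758 (Stag3, plus strand). Where a gene has several probes, letters tell them apart. Of Sycp2, probe a lies at chr2:178846443-178846502, probe b is the printed one and probe c lies at chr2:178846208-178846261. Of Hormad1, probe a lies at chr3:95459143-95459522 and probe b at chr3:95454122-95454181. Of Rec8, probe a lies at chr14:50492672-50492731 and probe b is the printed one. No exon annotation of mm7 was used here, so exons and untranslated regions are not named.

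Each value is a log2 signal from which the array's own 75th percentile was subtracted. Levels of different probes are not compared. On each array 74.3% to 86.6% of non-control spots were well above background. Glis3 was above background on 4 of 4 1-week WT arrays and 0 of 4 1-week Glis3KO2 arrays, at least 4.25-fold lower there, and on no 4-week array of either genotype. Slides 1 to 3 hold the 1-week arrays and slides 4 and 5 the 4-week arrays, and the ages were scanned on different days. Age thus cannot be told apart from slide or scan day. The 1-week Glis3KO2 replicate 4 is alone on slide 3, has its own scan day, and stands apart in the values below.

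At 4 weeks all 9 genes were lower in Glis3KO2 than in WT testis, on each of their 13 probes. The log2 differences ran from -2.04 for Hormad1 (probe a) to -1.08 for Sycp3, with a median of -1.35, a 2.54-fold lower signal. SE were 0.17 to 0.32 with 3 samples a group, and limma's adjusted p ran from 0.0007 to 0.0055. On 13 of 13 probes the 3 Glis3KO2 arrays lay below all 3 WT arrays. Of all 31378 probes tested at this age, 33.8% were called lower and 35.6% higher, 37.9% had all Glis3KO2 arrays below WT, and the median difference was 0.05. In RNA of a whole organ, fewer meiotic cells and less RNA per cell cannot be told apart. In a single fit of all 14 arrays, 11 of the 13 probes were called; Sycp3 (adjusted p = 0.07) and Sycp2 probe a (adjusted p = 0.22) were not.

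Among the lateral elements, Sycp3, the gene most often used to stain meiotic axes, gave 3.54, 3.39 and 3.49 on the WT arrays at 4 weeks. The Glis3KO2 arrays gave 2.30, 2.14 and 2.75. The WT values lay close together and all Glis3KO2 values lay below them, with a log2 difference of -1.08 ± 0.19 (SE; limma adjusted p = 0.0025). Its partner Sycp2, which recruits SYCP3 to the axis, fell on each of 3 probes. Probe b gave 0.35, 0.28 and 0.25 in WT and -1.70, -1.86 and -0.87 in Glis3KO2, a difference of -1.77 ± 0.27 (adjusted p = 0.0014). Probes a and c differed by -1.24 ± 0.27 and -1.73 ± 0.31.

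Sycp1, whose protein bridges the homologs, gave 2.99, 2.70 and 2.87 in WT and 1.46, 1.08 and 1.81 in Glis3KO2 at 4 weeks (-1.40 ± 0.22, adjusted p = 0.0015). Syce1 gave 5.91, 6.00 and 5.94 in WT and 3.63, 3.84 and 4.89 in Glis3KO2. That is a difference of -1.83 ± 0.32 (adjusted p = 0.0024), and its 3 Glis3KO2 values were spread over more than 1 log2 unit while those of WT were not. Syce2, the other central element gene, gave 4.00, 4.34 and 4.20 in WT and 3.06, 2.68 and 2.98 in Glis3KO2 (-1.27 ± 0.17, adjusted p = 0.001). Here the Glis3KO2 arrays lay together. Hormad1 fell by 2.04 ± 0.23 on probe a and by 1.33 ± 0.26 on probe b, and its 95% intervals, -2.60 to -1.49 and -1.94 to -0.71, overlap.

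The 3 cohesin subunit genes fell as well. Stag3 gave 4.75, 4.88 and 4.79 in WT and 2.74, 2.80 and 3.73 in Glis3KO2 at 4 weeks, a difference of -1.72 ± 0.28 (adjusted p = 0.0018). Smc1b gave 4.68, 4.69 and 4.69 in WT and 3.33, 3.16 and 3.94 in Glis3KO2 (-1.21 ± 0.22, adjusted p = 0.0027). Smc1b had the narrowest WT spread of the 13 probes. Rec8, the kleisin that closes the ring, gave 4.24, 4.26 and 4.27 in WT and 2.88, 2.66 and 3.18 in Glis3KO2 on probe a (-1.35 ± 0.17, adjusted p = 0.0009). Probe b, 5′ of it, differed by -1.32 ± 0.17. The 95% intervals of all 13 probes share a narrow stretch, from -1.54 (the lower bound of Sycp3) to -1.49 (the upper bound of Hormad1 probe a), and differences in size between members were not tested.

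**Figure D1:**
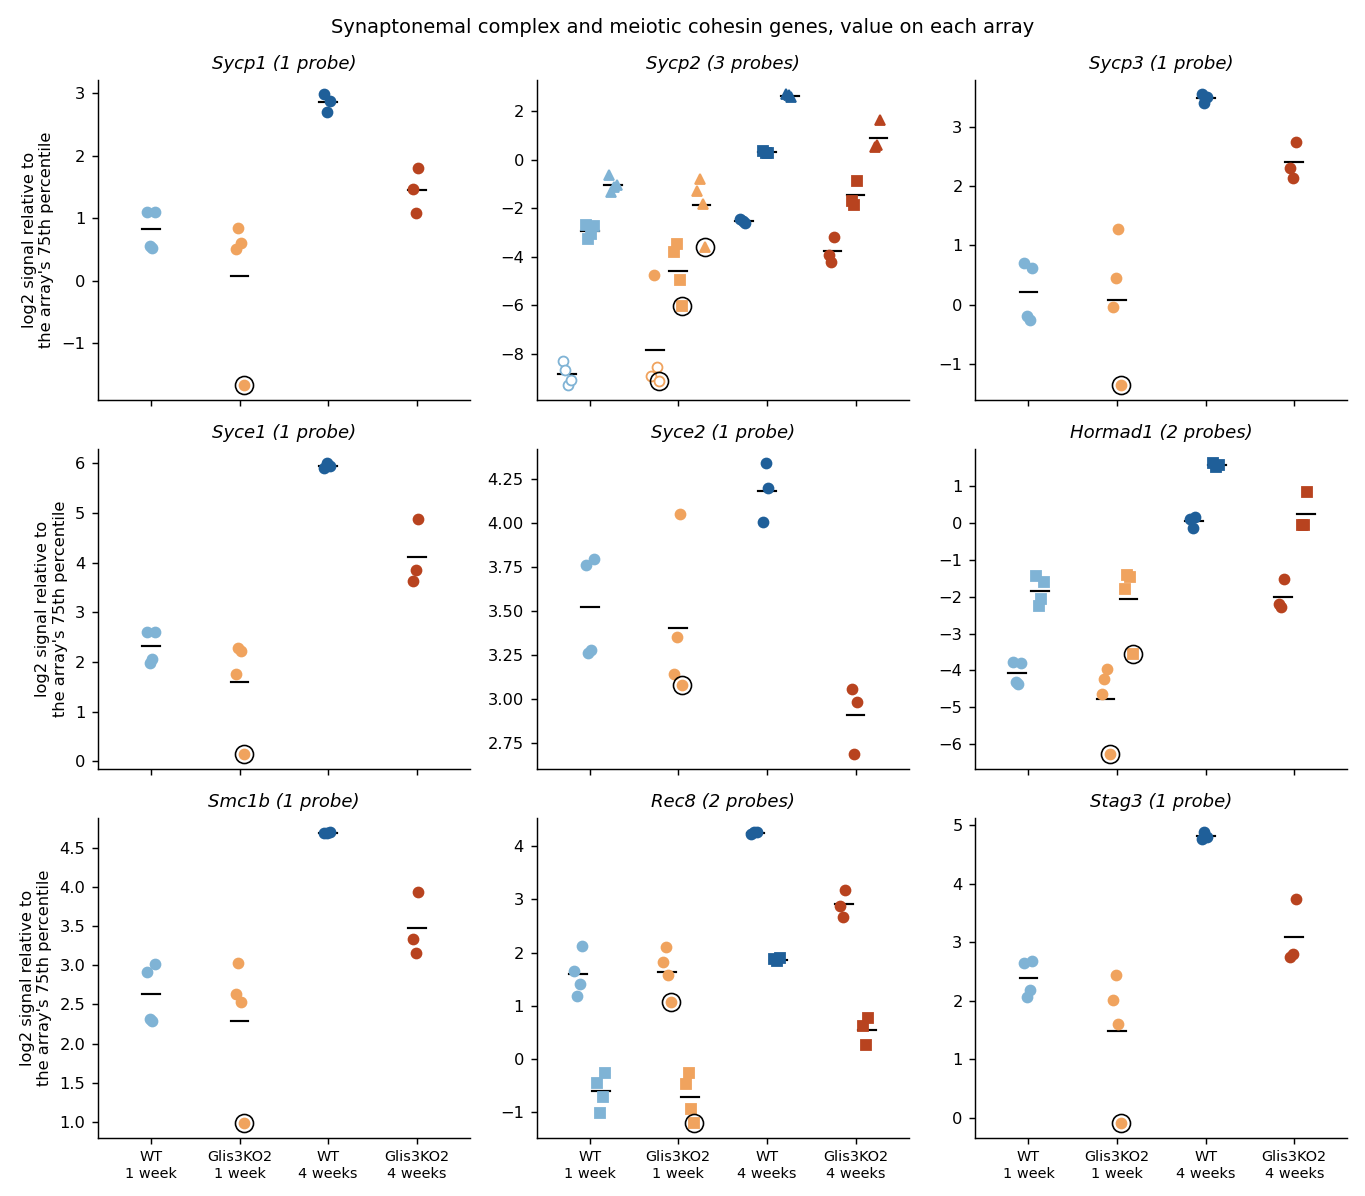
Log2 signal of each of the 13 probes on each of the 14 arrays, relative to the 75th percentile of the array, by group, with group means as bars; circles, squares and triangles are probes a, b and c of a gene, open symbols are not above background, and each panel has its own axis. Circled points are 1-week Glis3KO2 replicate 4, which lies lowest of its group on every probe shown, and at 4 weeks all Glis3KO2 points lie below all WT points.

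The 3 Glis3KO2 samples at 4 weeks were not alike. Replicate 3, on slide 5, was the least reduced, with a median deviation from the WT mean of -1.06 over the 13 probes, against -1.40 and -1.68 in replicates 1 and 2 on slide 4. Within slide 4, which holds 2 samples of each genotype, the median difference was -1.64 and 13 of 13 probes were below 0. On slide 5, with 1 sample of each, it was -1.07 and 13 of 13 were below 0. Without replicate 3, 13 of 13 probes were called and the median was -1.58.

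Cell type markers also differed at this age. Of 9 pachytene spermatocyte markers 9 were lower (median -2.13), of 9 spermatid markers 9 were lower (median -2.95) and of 7 pan-germ cell markers 5 were lower (median -1.65). Of 7 spermatogonial markers 2 were lower and 3 higher (median 0.20), and of 10 Sertoli cell markers 9 were higher (median 2.09). The 3 higher spermatogonial markers became 1 with normexp and 2 with median scaling or quantile normalization. Replicate 3 was the least reduced for the members and for the pachytene and spermatid lists: its mean deviation was -0.96 for the members, -1.04 for pachytene markers and -2.40 for spermatid markers. On replicates 1 and 2 it was -1.62 and -1.72, -2.58 and -2.25, and -2.79 and -3.63. The Sertoli list ran from 1.55 to 2.03 on the Glis3KO2 arrays and from -0.04 to 0.03 on the WT arrays. Of 6 macrophage markers 5 were higher (median 1.04), and of 5 peritubular markers 3 were higher and 1 lower (median 1.14). Of 8 Leydig cell markers 2 were higher and 3 lower (median -0.67). The part of cell make-up in the members' difference was not tested.

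**Figure D2:**
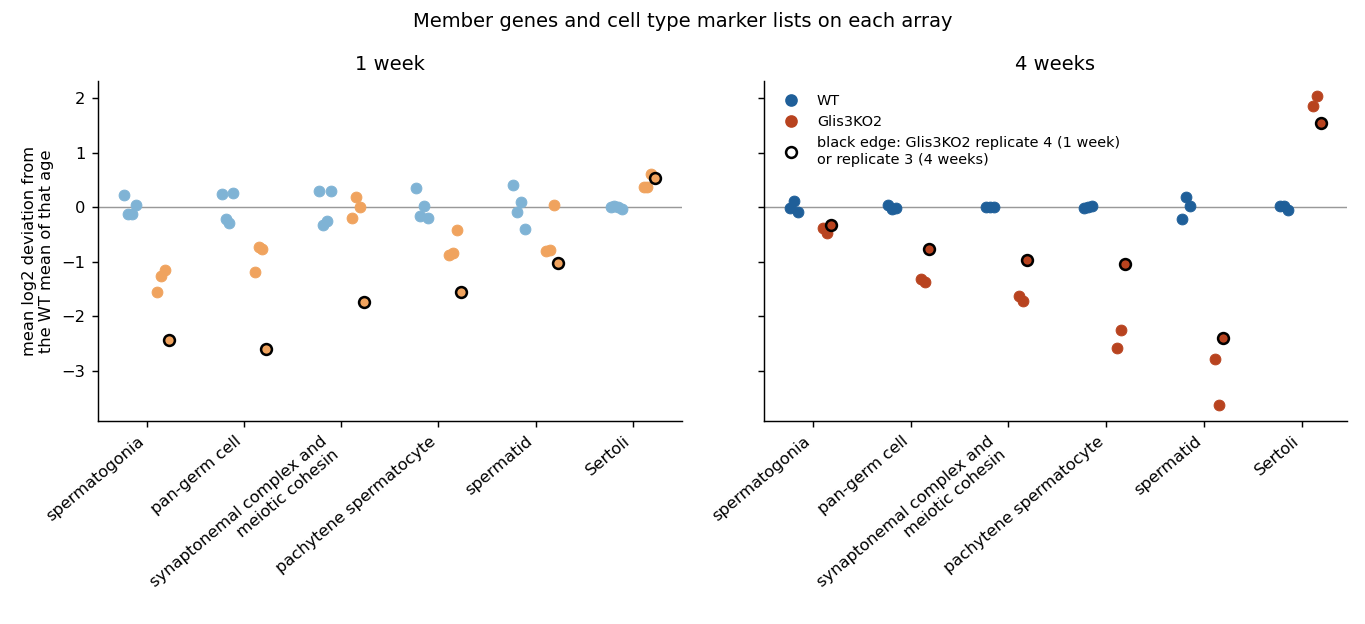
Mean log2 deviation from the WT mean of the same age, for each array, over the 9 member genes and 5 lists of cell type markers (1 probe a gene); blue is WT, orange or red Glis3KO2, and a black edge marks Glis3KO2 replicate 4 at 1 week and replicate 3 at 4 weeks. At 1 week the spermatogonial, pan-germ and pachytene lists lie below 0 on 4 of 4 Glis3KO2 arrays. The spermatid list does so on all but replicate 3, and the members lie near 0 on all but replicate 4. At 4 weeks the deviation grows from spermatogonial to spermatid markers.

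At 1 week none of the 9 genes differed between the genotypes in limma's test. Of the 12 probes measured, 0 were called, 1 had an unadjusted p under 0.05, and 11 lay below 0, with a median difference of -0.52 against -0.12 over all 33710 probes. Over all probes 6.75% were called lower and 3.24% higher, and these background counts depend on single arrays: the 2276 lower calls became 404, 710, 478 and 4074 without WT replicate 1, 2, 3 and 4, and 805 and 1029 without Glis3KO2 replicate 1 and 4. The 1091 higher calls ranged from 96 (without WT replicate 1) to 1478 (without Glis3KO2 replicate 2). The exception in the unadjusted test was Sycp2 probe b, which gave -2.70, -3.26, -3.09 and -2.76 in WT and -3.83, -3.47, -4.96 and -6.06 in Glis3KO2. Its groups did not overlap, as for 13.8% of all probes in this direction, and the difference was -1.63 ± 0.52 (adjusted p = 0.071). Probe c of the same gene overlapped between the groups (-0.85 ± 0.54, adjusted p = 0.27). Probe a was not above background on any 1-week WT array and on 3 of 4 Glis3KO2 arrays, so it was not tested at this age.

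The shift was largest on 1 array. On Glis3KO2 replicate 4 all 12 probes were below the WT mean, with a median deviation of -1.94. On replicates 1, 2 and 3 the medians were -0.28, 0.13 and -0.10, within the range of the WT arrays (-0.32 to 0.28). Stag3 gave 2.64, 2.05, 2.17 and 2.67 in WT and 2.01, 2.43, 1.60 and -0.10 in Glis3KO2. Sycp1 gave 1.10, 0.56, 0.53 and 1.10 in WT and 0.51, 0.84, 0.61 and -1.68 in Glis3KO2. Smc1b gave 2.92, 2.32, 2.28 and 3.02 in WT and 2.63, 3.03, 2.53 and 0.98 in Glis3KO2. For these genes replicates 1 to 3 overlapped WT or lay below it by less than replicate 4 did.

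Rec8 and Syce2 did not follow replicate 4 so far. Rec8 probe a gave 1.66, 1.18, 1.41 and 2.13 in WT and 1.83, 2.10, 1.57 and 1.08 in Glis3KO2 (0.05 ± 0.27, 95% interval -0.57 to 0.66). Syce2 gave 3.76, 3.26, 3.28 and 3.80 in WT and 3.14, 3.35, 4.05 and 3.08 in Glis3KO2 (-0.12 ± 0.25, 95% interval -0.68 to 0.44). Sycp3 gave -0.04, 0.45 and 1.28 on Glis3KO2 replicates 1 to 3, against 0.70, -0.18, -0.26 and 0.61 in WT. Without replicate 4 the median over the 12 probes was -0.09, 7 lay below 0 and 0 were called. The 95% intervals then ran from -0.55 to 1.24 for Sycp3 and from -0.95 to 0.21 for Stag3, so a 1.5-fold difference lies within either interval. Within slide 1 the median was -0.18 and within slide 2, with 1 Glis3KO2 sample, 0.15. Median scaling moved the 1-week median over all probes from -0.12 to 0.14, and 7 of the 12 member probes then lay below 0.

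Markers of the germ line differed at 1 week, and so did some of other cells. Of 7 spermatogonial markers 5 were lower (median -1.15) and of 7 pan-germ cell markers 2 were lower (median -1.41). Without Glis3KO2 replicate 4 the lower markers were 4 of 7 in either list, and the pan-germ count was also 4 with normexp and 3 with median scaling or quantile normalization. The spermatogonial list lay between -1.56 and -1.16 on Glis3KO2 replicates 1 to 3 and at -2.44 on replicate 4. The pan-germ list lay between -1.20 and -0.73 on replicates 1 to 3 and at -2.59 on replicate 4. The mean deviation of the members was -0.20, 0.18 and -0.01 on replicates 1 to 3 and -1.74 on replicate 4. The pachytene list lay at -0.88, -0.84 and -0.42 on replicates 1 to 3 and at -1.55 on replicate 4. Of its 9 markers 3 were lower and 1 higher (median -0.55), and of 7 spermatid markers tested 2 were lower (median -0.57). Calls in the pachytene list were lost without replicate 4, and calls in both lists with normexp or quantile normalization. Up to 3 pachytene and 4 spermatid markers were not above background on a Glis3KO2 array. Of 10 Sertoli cell markers 3 were higher (median 0.42), of 8 Leydig cell markers 4 (median 0.46) and of 6 macrophage markers 4 (median 0.80). Calls in the Sertoli, Leydig and macrophage lists were lost without Glis3KO2 replicate 4. The Sertoli list did not set replicate 4 apart (0.54, against 0.37 to 0.60 on the others). The epididymis list was high on replicates 1 and 4 (2.85 and 2.55) and not on replicates 2 and 3 (-0.71 and 0.06). Whether replicate 4 held fewer germ cells was not tested.

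**Figure D3:**
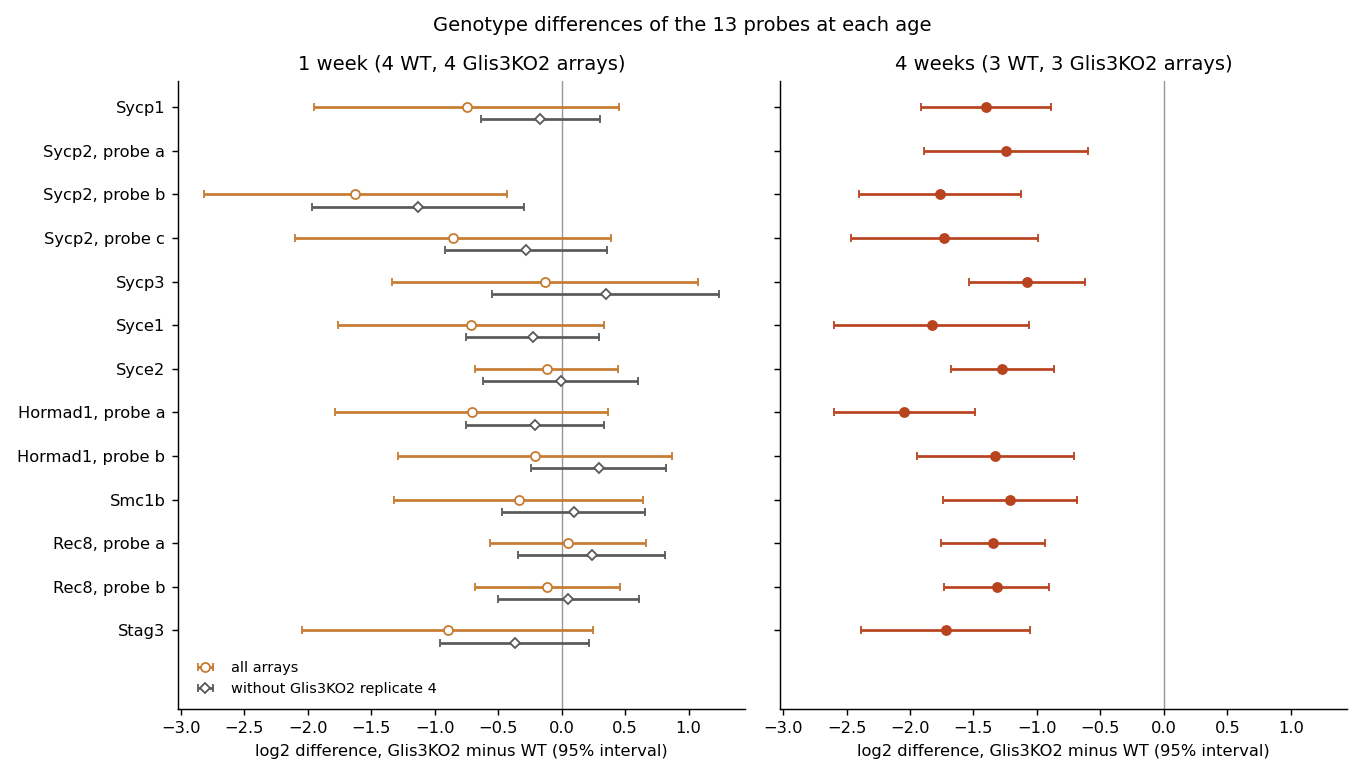
Log2 difference, Glis3KO2 minus WT, of each probe at 1 week (left, 12 probes) and 4 weeks (right, 13 probes), with 95% intervals; filled points were called at an adjusted p under 0.05, and grey diamonds leave out 1-week Glis3KO2 replicate 4. At 1 week no point is filled and the diamonds lie higher than the points, some of them above 0, and at 4 weeks all 13 intervals lie below 0.

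Between 1 and 4 weeks all 9 genes rose in WT testis, on 13 of 13 probes, where 29.9% of all probes were called higher and 51.7% lower, and the median over all probes was -0.59. The median rise was 3.24 on the log2 scale. Sycp2 probe a rose from background to -2.47, -2.55 and -2.60 and was at least 25.7-fold higher. Hormad1 rose by 4.10 ± 0.19 on probe a and 3.40 ± 0.20 on probe b, Syce1 by 3.64 ± 0.18 and Sycp3 by 3.26 ± 0.27. Of the cohesin genes Rec8 rose by 2.66 ± 0.22 on probe a, Stag3 by 2.42 ± 0.18 and Smc1b by 2.06 ± 0.21, and Sycp1 rose by 2.03 ± 0.19. Syce2 had the smallest rise, 0.66 ± 0.18 (adjusted p = 0.011), and under quantile normalization its rise was 0.17 (adjusted p = 0.35).

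In Glis3KO2 testis 6 of the 9 genes rose between the ages. Of the 13 probes 10 were higher at 4 weeks, where 21.8% of all probes were called higher and 28.7% lower. Hormad1 rose by 2.77 ± 0.51 on probe a, Syce1 by 2.52 ± 0.53, Sycp3 by 2.31 ± 0.53, Rec8 probe a by 1.27 ± 0.27 and Stag3 by 1.60 ± 0.56. Stag3's adjusted p was 0.04, and the call was lost without 1-week replicate 3 (0.065) or without 4-week replicate 1 (0.057), 2 (0.071) or 3 (0.15). It was also lost with no filter (0.059) and with the replicate block (0.055). Sycp1 (1.38 ± 0.56, adjusted p = 0.069), Smc1b (1.18 ± 0.46, adjusted p = 0.058) and Syce2 were not called. Sycp1 was called with the replicate block (adjusted p = 0.048) and without 1-week replicate 2 (0.046) or 4 (0.033), and Smc1b without 1-week replicate 2 (0.032). Both were also called with normexp, with trend and robust moderation and with 1 fit of all arrays. Smc1b was called with the filter on all arrays as well. Syce2 was the only member below its 1-week level, by -0.50 ± 0.27 (adjusted p = 0.15). With median scaling it fell by 0.70 (adjusted p = 0.05, just under the threshold). The age and genotype comparisons use the same arrays and are not independent of each other.

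The difference between the genotype differences at the 2 ages was tested in 1 fit of all arrays. Sycp2 probe a is left out of the count, since 1 of its 8 1-week arrays was above background. The difference was below 0 on the other 12 probes and called on 3: Rec8 probe a (-1.39 ± 0.36, adjusted p = 0.006), Rec8 probe b (-1.21 ± 0.34, adjusted p = 0.0096) and Syce2 (-1.15 ± 0.33, adjusted p = 0.011). Over all probes 20.8% were called lower and 31.1% higher, and the median was 0.29. Rec8 and Syce2 are the members on which 1-week Glis3KO2 replicate 4 lay nearest to WT. Without that replicate 11 of the 12 probes, of 9 genes, were called, among them Sycp1 (-1.24 ± 0.30, adjusted p = 0.0058) and Stag3 (-1.35 ± 0.40, adjusted p = 0.014). With slide as a block 11 of the 12 were called. Syce2 was not called under quantile normalization (adjusted p = 0.12).

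The other genes of these structures were mixed at 4 weeks. Of 6 further synaptonemal complex and axis genes on the array, 3 were lower and 1 higher: Syce3, a central element gene, by -2.09 ± 0.30, Tex12, the partner of Syce2, by -1.17 ± 0.23, and Hormad2, the paralog of Hormad1, by -0.95 ± 0.23. Fkbp6 was 0.61 ± 0.20 higher on its brighter probe and not called on the other (0.30 ± 0.16). Six6os1 (4930447C04Rik on the array), named here after its values were seen, was not called on its brightest probe (0.08 ± 0.18). It was lower on other probes (-0.78 ± 0.21 and -0.52 ± 0.20) and not called on the last (-0.19 ± 0.20). The median of the 6 genes, by the brightest probe, was -0.44. Of 6 genes that tie telomeres to the nuclear envelope in meiotic prophase, 5 were lower (median -1.76), among them Terb1 (-1.90 ± 0.30), Terb2 (-1.68 ± 0.26) and Spdya (-2.18 ± 0.41). Kash5 was lower on its brighter probe (-1.85 ± 0.35) and not called on the other (-0.29 ± 0.27). Sgo2a, the guardian of centromeric REC8, was lower by -1.85 ± 0.29, Meikin by -2.27 ± 0.48, and Sgo1 was not called (0.09 ± 0.15). At 1 week 0 of the 6 complex and axis genes (1 with quantile normalization) and 0 of the 6 telomere genes were called, and of the 3 protection genes Sgo2a was lower (-0.76 ± 0.16, adjusted p = 0.033). That call was lost without replicate 4 (adjusted p = 0.055) and with median scaling (0.064). The 6 complex and axis genes had a mean deviation of -0.56, -0.15 and -0.15 on Glis3KO2 replicates 1 to 3 at that age. On replicate 4 it was -1.47, and on the 1-week WT arrays it ran from -0.23 to 0.25.

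General cohesin genes were mixed. Of 13 genes, by the brighter probe, 3 were lower and 6 higher at 4 weeks (median 0.25). Among the 6 higher, Pds5a and Mau2, named here after their values were seen, were not called with normexp (adjusted p = 0.065 and 0.052). Over all probes 33.8% were called lower and 35.6% higher. The 3 lower, named here after their values were seen, were Espl1 (-1.65 ± 0.31), Wapl (-1.05 ± 0.17) and Nipbl (-0.74 ± 0.15). Wapl was also lower on its other probe (-0.53 ± 0.14). Nipbl was lower on another probe (-2.44 ± 0.41) and not called on the last (0.18 ± 0.23). Smc1a, whose place Smc1b takes, rose on both of its probes, by 1.51 ± 0.17 and 1.12 ± 0.19, where Smc1b fell by 1.21. Its brighter probe gave 0.69, 0.51 and 0.56 in WT and 2.09, 2.35 and 1.85 in Glis3KO2, with no overlap. Stag1 rose on 2 of its 4 probes (1.41 ± 0.19 and 1.17 ± 0.21) and was not called on the others (0.34 and -0.07). Stag2 rose on 2 of 3 probes (1.33 ± 0.18 and 0.55 ± 0.19) and fell on the other (-1.05 ± 0.16). Rad21, the counterpart of Rec8, rose by 1.96 ± 0.21 on its brighter probe and fell by 2.04 ± 0.20 on the other, so no direction is given for the gene. Smc3, the subunit that meiotic and general rings share, named here after its values were seen, was not called on either probe (-0.12 ± 0.14 and 0.02 ± 0.16). The directions named here were the same with median scaling, quantile normalization and normexp for the brighter probes of these genes. In WT testis 9 of the 13 general cohesin genes fell and 2 rose between 1 and 4 weeks (median -1.39). Of the 6 telomere genes 6 rose (median 4.24), though Sun1 turned to -0.02 (adjusted p = 0.84) with quantile normalization. Over all probes 51.7% were called lower and 29.9% higher with age in WT. At 1 week Wapl and Espl1, which open the ring by release and by cleavage, were lower in Glis3KO2 (-0.84 ± 0.18 and -0.60 ± 0.15), and the other 11 general cohesin genes were not called. Both calls were lost with median scaling (adjusted p = 0.054 and 0.17), and that of Espl1 also without replicate 4 (0.11) and with normexp (0.051).

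**Figure D4:**
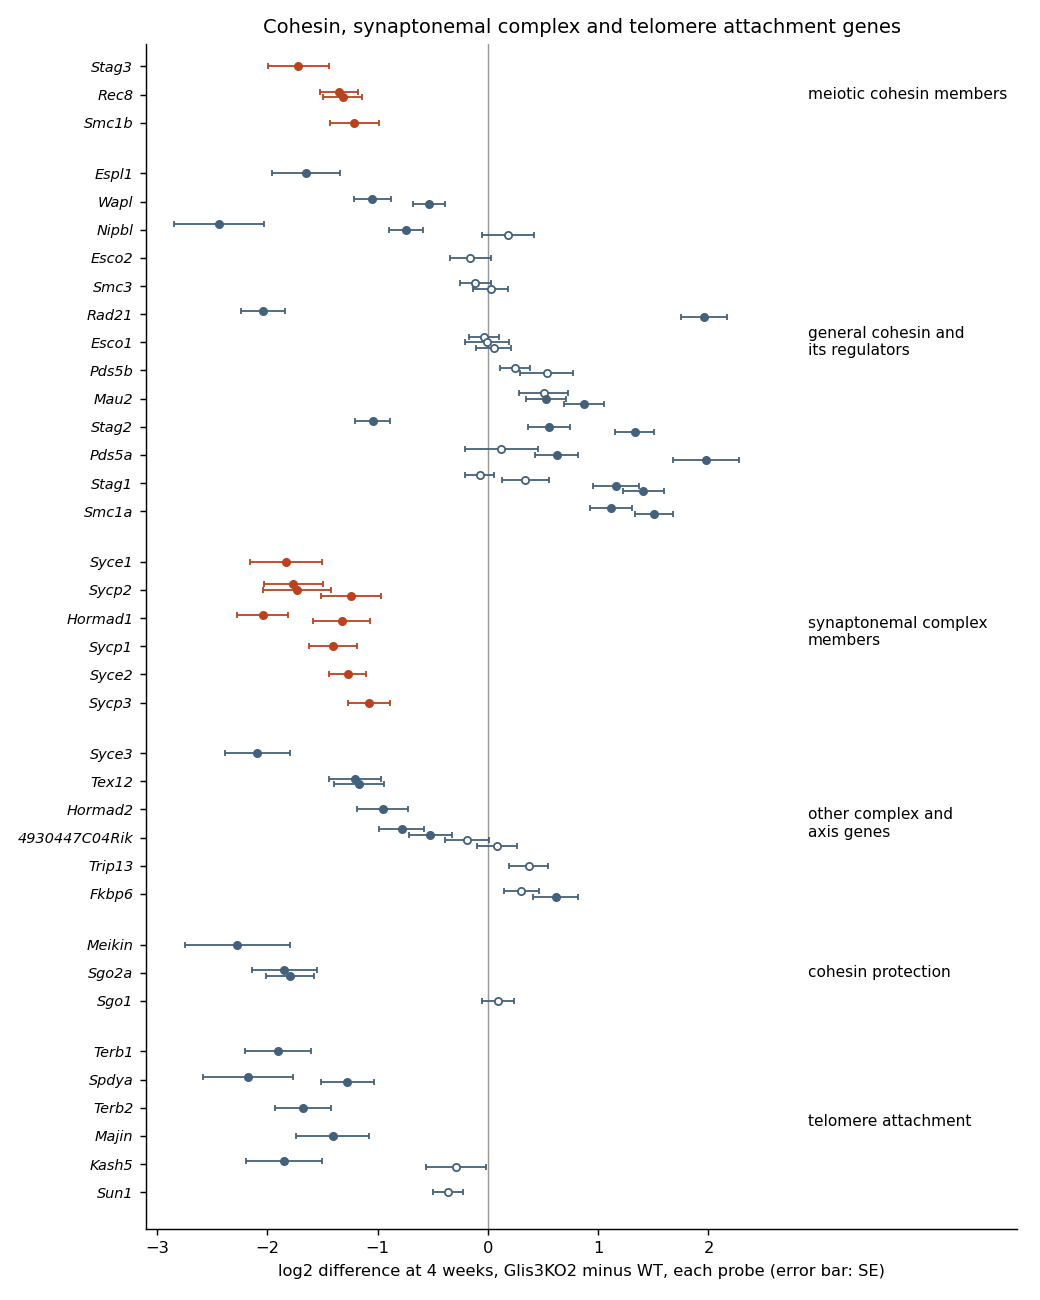
Log2 difference at 4 weeks, Glis3KO2 minus WT, of every tested probe of the member genes (red) and of the genes of 4 related lists (blue), with SE; filled points were called at an adjusted p under 0.05. All red points lie below -1, Smc1a lies above 1 on both probes, and Rad21 and Stag2 have filled points on both sides of 0.

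Of the 5 measured genes known to act at meiotic entry, 2 were lower and 1 higher at 4 weeks (median 0.22). Over all probes 33.8% were called lower and 35.6% higher at that age. Meioc, which prolongs meiotic prophase, fell by 1.42 ± 0.28 and its partner Ythdc2 by 0.69 ± 0.16, and Dmrt1, which holds back meiosis in spermatogonia, rose by 1.17 ± 0.22. Stra8, the retinoic acid target that starts meiosis, was not called (0.61 ± 0.28, adjusted p = 0.089). At 1 week Stra8 was not called either (-0.73 ± 0.43, adjusted p = 0.24). Rarg, a retinoic acid receptor gene, was lower (-0.66 ± 0.15, adjusted p = 0.04), and that call was lost without replicate 4 (adjusted p = 0.089), with median scaling (0.11), with quantile normalization (0.23) and with normexp (0.25).

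Most members followed the mean of the 9 genes closely over the 14 arrays. That mean holds the brightest probe of each member, so each gene is part of what it is compared with, which raises r. Pearson's r of a probe with the mean of the 9 genes was 0.88 to 0.995 on 12 of 13 probes and 0.50 for Syce2. Over the 8 1-week arrays Syce2 had 0.62, Sycp2 probe a 0.33 and Sycp2 probe b 0.80. Rec8 had 0.75 on probe a and 0.78 on probe b there, and the other probes had 0.87 to 0.99. Over the 6 4-week arrays Syce2 had 0.95. These points share the split by age and genotype, so the values describe the pattern and carry no p. Outside the lists, only probes well above background on all 4-week WT arrays were ranked by likeness to the mean. Names of clones and accessions were passed over. The genes most like the mean of the 9 over 14 arrays were Ccdc73 (r = 0.99), Rad9b, Dgat2, Hmx1, Chfr, Atf7ip2, Klb and Ttc39b. Of the 29754 probes ranked 12.1% had an r over 0.9. Over the 6 4-week arrays they were Ubp1, Ccnk, Kcnc2, Pdcd2l, Usp47, Atl1, Cdkl2 and Cip2a, with 31.7% of probes over 0.9.

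The promoters of the 9 genes were searched for 6 motifs on both strands. The search ran from 250 bases before to 50 bases after the RefSeq start site (GRCm38.p6). All 9 genes had an entry. The E-box CACGTG was found in 5 of 9 (Sycp1, Sycp3, Syce2, Stag3 and Hormad1), against 8.09% of 27025 genes. The E2F-type motif GCGGGAA was found in 5 of 9 (Sycp3, Syce2, Smc1b, Stag3 and Hormad1), against 5.29%. CNCCTCAG was found in 2 (9.12% of genes), AACNGTTA in 1 (1.68%), and TGACGTCA (2.03%) and GTTGCCA (5.02%) in 0. E2F factors with a repressive role are known to keep germ line genes silent in somatic cells. The 250 bases before the start of 2 members that hold both motifs are given with the motifs in capitals: Sycp3 at chr10:88459337-88459586 and Hormad1 at chr3:95559427-95559676, both on the plus strand and from RefSeq.
Sycp3: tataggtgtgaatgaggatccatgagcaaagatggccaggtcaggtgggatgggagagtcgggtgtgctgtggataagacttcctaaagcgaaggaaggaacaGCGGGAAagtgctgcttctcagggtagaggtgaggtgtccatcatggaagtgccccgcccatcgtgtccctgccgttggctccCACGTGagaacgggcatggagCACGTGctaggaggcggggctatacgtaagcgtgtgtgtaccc
Hormad1: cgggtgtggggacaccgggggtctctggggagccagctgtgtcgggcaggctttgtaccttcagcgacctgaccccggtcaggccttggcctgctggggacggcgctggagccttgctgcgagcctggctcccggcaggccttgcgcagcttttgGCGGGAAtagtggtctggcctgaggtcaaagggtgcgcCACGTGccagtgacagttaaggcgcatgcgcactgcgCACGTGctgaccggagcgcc
Each of the 2 sequences holds 2 copies of CACGTG and 1 of GCGGGAA, and the copies do not overlap. A match describes these letters and says nothing of binding. The shares are over all genes with an entry, not over genes matched to the members in expression or base content. Whether the members share a regulator was not tested.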

How the data were processed

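Whole testis RNA was measured on 1 array per sample. Per the file headers, each deposited scanner file gives every spot as intensity on a linear scale, raw, local background and processed (background already subtracted, arrays not scaled to each other), with flags for uniformity, saturation and detection. Per the submitters' processing notes the software was Agilent Feature Extraction 9.5. The authors' value table repeats that processed intensity at all 45018 spots.

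Processed intensity was taken to log2, non-uniform spots were dropped, repeat spots averaged, and the 75th percentile of non-control probes subtracted on each array. Probes were named through accession (22951), symbol (6659) or synonym (3109) in RefSeq, and 8455 kept the name on the array. To be tested a probe had to be detected on 3 or more arrays of a compared group. Every probe had its own limma 3.58.1 test in R 4.3.3 (lmFit and eBayes), with Benjamini-Hochberg adjustment over all probes and a threshold of 0.05. All adjusted p-values and SE are limma's, and 95% intervals are unadjusted. A fold against a group wholly at background is a bound, set by the lowest detected signal. The fit was tested on simulated data in which 100 probes changed by 1 log2 unit and 100 by 2. It called 45% and 74% of these at 1 week and 20% and 55% at 4 weeks. Fewer probes changed there than were called in the data, so these shares need not hold for the data. Python 3.11.15, pandas 2.3.3, numpy 2.4.6 and matplotlib 3.10.9 served for tables and plots.

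The members and the gene lists were chosen with earlier results of these data known. Named are all probes of the members, up to 4 genes of each pathway list with the smallest p per comparison, the 8 genes most like the mean of the members, and Glis3, and other names are said to be chosen after their values were seen. Lists use the brightest tested probe of a gene. Alternatives tried were normexp with an offset of 50, quantile normalization, scaling by the median, no filter and a filter on all arrays, the brightest probe or the mean of the probes of a gene, an intensity trend with robust moderation, 1 fit of all arrays, replicate and slide blocks, 1 slide at a time, and leaving out each array. Proteins are not used here.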

Additional observations from a re-analysis of the deposited data

Results flagged for a closer look

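On 2 of 26 sets of 4 values, 1 array lay far from the other 3 of its group, where chance gives about 1 in 20. Sycp1 stood at -1.68 on 1-week Glis3KO2 replicate 4, against 0.51 to 0.84 on the others. Sycp2 probe a stood at -4.75, above background, on 1-week Glis3KO2 replicate 2, against -9.11 to -8.54, not above background, on the others. Probes b and c of Sycp2 did not show that array as the highest by such a margin (-3.47 and -0.82, next values -3.83 and -1.28).

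The genotype difference at 4 weeks was further below 0 than that at 1 week for Syce2 (by -1.15, adjusted p = 0.011) and Rec8 (probe a by -1.39, adjusted p = 0.006; probe b by -1.21, adjusted p = 0.0096), in limma's test of that difference over all 14 arrays.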

How the results depend on the processing

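At 4 weeks 13 of 13 probes were lower in the alternatives run, except for 11 in 1 fit of all arrays, and 9 of 9 genes where probes were joined per gene. At 1 week 1 probe, Sycp2 probe b, was called lower with normexp, with trend and robust moderation and with 1 fit of all arrays, and 0 to 1 when an array was left out, the 1 being without Glis3KO2 replicate 2. In Glis3KO2 with age, 6 genes were higher with the brightest probe and 6 with the mean of the probes, because 9 genes rather than 13 probes are tested there. By probe, 12 were higher with normexp, with trend and robust moderation and with 1 fit of all arrays. With no filter 9 were higher, and 9 to 12 when an array was left out. For the difference between ages, 7 were lower with normexp, 12 with the slide block and 3 to 11 when an array was left out, 11 being without 1-week Glis3KO2 replicate 4. In the slide block that array is alone on its slide and adds nothing to the genotype difference. The counts with normexp and the slide block include Sycp2 probe a, which 1 of 8 1-week arrays measured above background. Signs at 1 week turned on probes that were not called. With median scaling Sycp3 was 0.12, Syce2 0.14, Rec8 probe b 0.15 and Hormad1 probe b 0.046. With the slide block Sycp3 was 0.33, Smc1b 0.13, Rec8 probe b 0.073 and Hormad1 probe b 0.29. On slide 1 alone Sycp3 was 0.40, Syce2 0.077 and Hormad1 probe b 0.13. On slide 2 alone Sycp1 was 0.0076, Sycp2 probe c 0.36, Sycp3 0.23, Smc1b 0.36, Rec8 probe b 0.37, Stag3 0.068 and Hormad1 probe b 0.52. Rec8 probe a was -0.052 with quantile normalization and -0.032 with the mean of the probes. Leaving out an array gave Sycp3 -0.53 to 0.35, Smc1b -0.59 to 0.096, Rec8 probe a -0.10 to 0.24, Rec8 probe b -0.26 to 0.051, Hormad1 probe b -0.43 to 0.29, and for the difference between ages Sycp2 probe b -0.63 to 0.23. The cause was not tested. Median scaling turned the 1-week calls over all probes from 1091 higher and 2276 lower to 3697 and 1523, those of the difference between ages from 10943 and 7302 to 7565 and 9453, and those with age in Glis3KO2 from 7031 and 9251 to 5859 and 11643. The 2276 lower calls over all probes at 1 week became 506 with the replicate block and 597 with the slide block. Replicate numbers did not pair the samples (same-number correlations -0.14 to 0.12 at 1 week and -0.22 to 0.10 at 4 weeks). With the replicate block 0 of 12 probes were called at 1 week and 13 of 13 at 4 weeks, 13 rose in WT, 10 in Glis3KO2, where 1-week replicate 4 has no partner and adds nothing, with Sycp1 gained (adjusted p = 0.048) and Stag3 lost (0.055), and 3 differed between ages. Precision is limited by 3 or 4 arrays a group.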

Other observations

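Among 19 genes of the related lists with several probes tested at 4 weeks, 2 had probes called in opposite directions, Rad21 and Stag2, and both encode general cohesin subunits. Of Rad21, the brighter probe (mm7, chr15:52016899-52016958) gave 2.51, 2.29 and 2.43 in WT and 4.64, 4.49 and 3.98 in Glis3KO2. The other (chr15:52018305-52018364) gave 1.01, 1.38 and 1.44 in WT and -0.48, -0.98 and -0.84 in Glis3KO2. In 1-week WT testis the brighter probe stood at 4.75 to 4.91 and the other at -0.68 to 0.06, so with age in WT the first went down and the second up. Of Stag2, the probe that fell lies at chrX:37358417-37358476 and the probes that rose at chrX:37368233-37368292 and chrX:37304204-37304263. The several probes of Sycp2, Hormad1 and Rec8 moved the same way at 4 weeks.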
